A study of Mus musculus with 36 samples.

Results

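The 10 genes described here are subunits of activator protein 1 (AP-1) and related immediate early genes: Fos, Fosb, Fosl1 and Fosl2 of the Fos family, Jun and Junb of the Jun family, Atf3, Egr1, Nr4a1 and Ier2. They were taken by symbol from a table of 55487 genes, in which all 10 were found, and all 10 passed the filter on low counts that left 15489 genes tested. RNA-seq read counts were available for 36 libraries of primary murine embryonic fibroblasts (MEFs) treated with vehicle or with 1 µM dexamethasone (Dex), a synthetic glucocorticoid, for 5 h. Each of 12 groups had 3 libraries. Run 1 held GRwt/wt, GRD/D, GRD+L/D+L and GRko/ko cells, and run 2 held a second GRwt/wt set and GRL/L cells, so every mutant was compared with the GRwt/wt libraries of its own run. GR is the glucocorticoid receptor encoded by Nr3c1. The D allele carries a point mutation in the dimer interface of the DNA-binding domain, the L allele an isoleucine to alanine change in the ligand-binding domain, D+L both changes, and ko cells are GR knockout. All cells were homozygous, and FVB/NJ is the strain on the label of every library, although the study's methods name another background for the knockout line. If that line was on the other background, strain and genotype cannot be told apart in comparisons of GRko/ko with GRwt/wt cells. Cells came from embryos, and the 3 cultures of a genotype were described as coming from different mice. The p-values refer to the spread between libraries of a group, which is that between cultures only if each library came from its own culture. All 6 libraries of each genotype and run nevertheless shared 1 profile of sex-linked transcripts, and whether the cultures of a genotype were separate embryos was not tested. In bulk libraries, fewer cells of a type and less RNA per cell cannot be told apart.

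AP-1 is a dimer of basic leucine zipper proteins. Fos family proteins bind DNA only together with a Jun family partner, whereas Jun proteins can also pair with each other, and Atf3 belongs to the related ATF group. The genes for most of these subunits are immediate early genes, which serum, stress and growth factors switch on within minutes through the serum response factor, its ternary complex partners and CREB, without new protein synthesis. Egr1 (a zinc finger factor), Nr4a1 (an orphan nuclear receptor) and Ier2 belong to the same early programme. Ligand-bound GR is known to repress many AP-1 target genes, inflammatory cytokines among them.

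The upstream sequences of Fos and Nr4a1 are shown because these genes carried the responses of opposite sign described below. Of the 10 members, 7 had an entry in the set of RefSeq promoters used here (GRCm38.p6), and Fosl1, Egr1 and Ier2 had none in it. The 250 bases before the annotated start were searched on both strands, and capitals mark TGACG or its reverse complement, the half-site of the cAMP response element (CRE).
Fos, chr12:85473640-85473889, plus strand: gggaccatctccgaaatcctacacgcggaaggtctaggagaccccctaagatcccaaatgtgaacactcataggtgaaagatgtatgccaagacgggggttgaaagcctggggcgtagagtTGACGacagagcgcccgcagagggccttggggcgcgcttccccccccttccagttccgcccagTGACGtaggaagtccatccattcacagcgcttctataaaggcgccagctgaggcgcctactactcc
Nr4a1, chr15:101266596-101266845, plus strand: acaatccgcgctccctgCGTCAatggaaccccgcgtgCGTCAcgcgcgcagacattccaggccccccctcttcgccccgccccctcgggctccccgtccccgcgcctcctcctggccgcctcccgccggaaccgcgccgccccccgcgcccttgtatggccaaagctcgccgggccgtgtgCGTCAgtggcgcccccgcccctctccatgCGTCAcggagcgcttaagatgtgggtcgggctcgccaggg

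The half-site occurred at -129 and -66 in Fos and at -233, -213, -69 and -40 in Nr4a1, counted from the RefSeq start, which for Nr4a1 lies inside the annotated span of the gene given further on. It was also present 1 time each in Fosb, Junb and Atf3, and not in Jun or Fosl2. Among 32851 RefSeq promoters of the same length 17.8% held it. The full CRE TGACGTCA, which contains the half-site (1.55% of promoters), the AP-1 site TGANTCA (6.75%), the CArG box of serum response factor (1.47%), the GR palindrome (0.00913%) and a relaxed form of it (0.387%) had no match in these windows of the 7 members. A match describes letters and not a bound site, and a missing match says only that the letters are not in this window.

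The libraries held 15280166 to 19102035 assigned reads in run 1 and 21532686 to 28662608 in run 2. Nr3c1, the targeted gene, was at 15.9 to 20.4 CPM (assigned reads scaled to library size) in GRko/ko cells and at 47.8 to 105 CPM in all other libraries. All 7 genes of a list of known GR-induced genes (such as Fkbp5 and Tsc22d3) rose with Dex in GRwt/wt of both runs and in GRL/L cells, 6 of 7 rose in GRD/D and in GRD+L/D+L cells, and none was called in GRko/ko cells. The fibroblast collagens Col1a1 and Col1a2 were at 5390 CPM or more in every library, while other fibroblast markers varied more (Dcn 30.7 to 680 CPM, Lum 1.58 to 307 CPM), and of the 8 markers 6 were lower and none higher in GRD+L/D+L than in GRwt/wt vehicle libraries. The groups also differed in features other than GR. The summed level of 10 macrophage markers was 33.5 to 42.5 CPM in GRD+L/D+L, 187 to 327 CPM in GRwt/wt of run 1, 675 to 735 CPM in GRD/D and 2790 to 3120 CPM in GRko/ko vehicle libraries, and 470 to 494 CPM in GRwt/wt of run 2 against 829 to 987 CPM in GRL/L vehicle libraries. None of the 10 was at 0 in a whole group. Summed chondrocyte markers were at 180 to 551 CPM in GRko/ko against 18.9 to 21.1 CPM in GRwt/wt vehicle libraries of run 1. In run 2, GRwt/wt vehicle replicate 6 stood apart in its summed epithelial markers, at 49.2 CPM against 4.09 and 4.81 CPM in the other vehicle libraries of the set, and the calls that changed without it are given below. Xist, the transcript of the inactive X chromosome, was at 165 to 305 CPM in all GRwt/wt run 1 and GRD/D libraries and at 14.1 CPM or less in all others, while the sum of 4 Y-linked genes was at 2.07 CPM or less in the former and at 136 CPM or more in the latter. Sex and genotype therefore cannot be told apart in comparisons of GRD+L/D+L or GRko/ko with GRwt/wt of run 1, nor sex and run between the GRwt/wt sets.

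**Figure D1:**
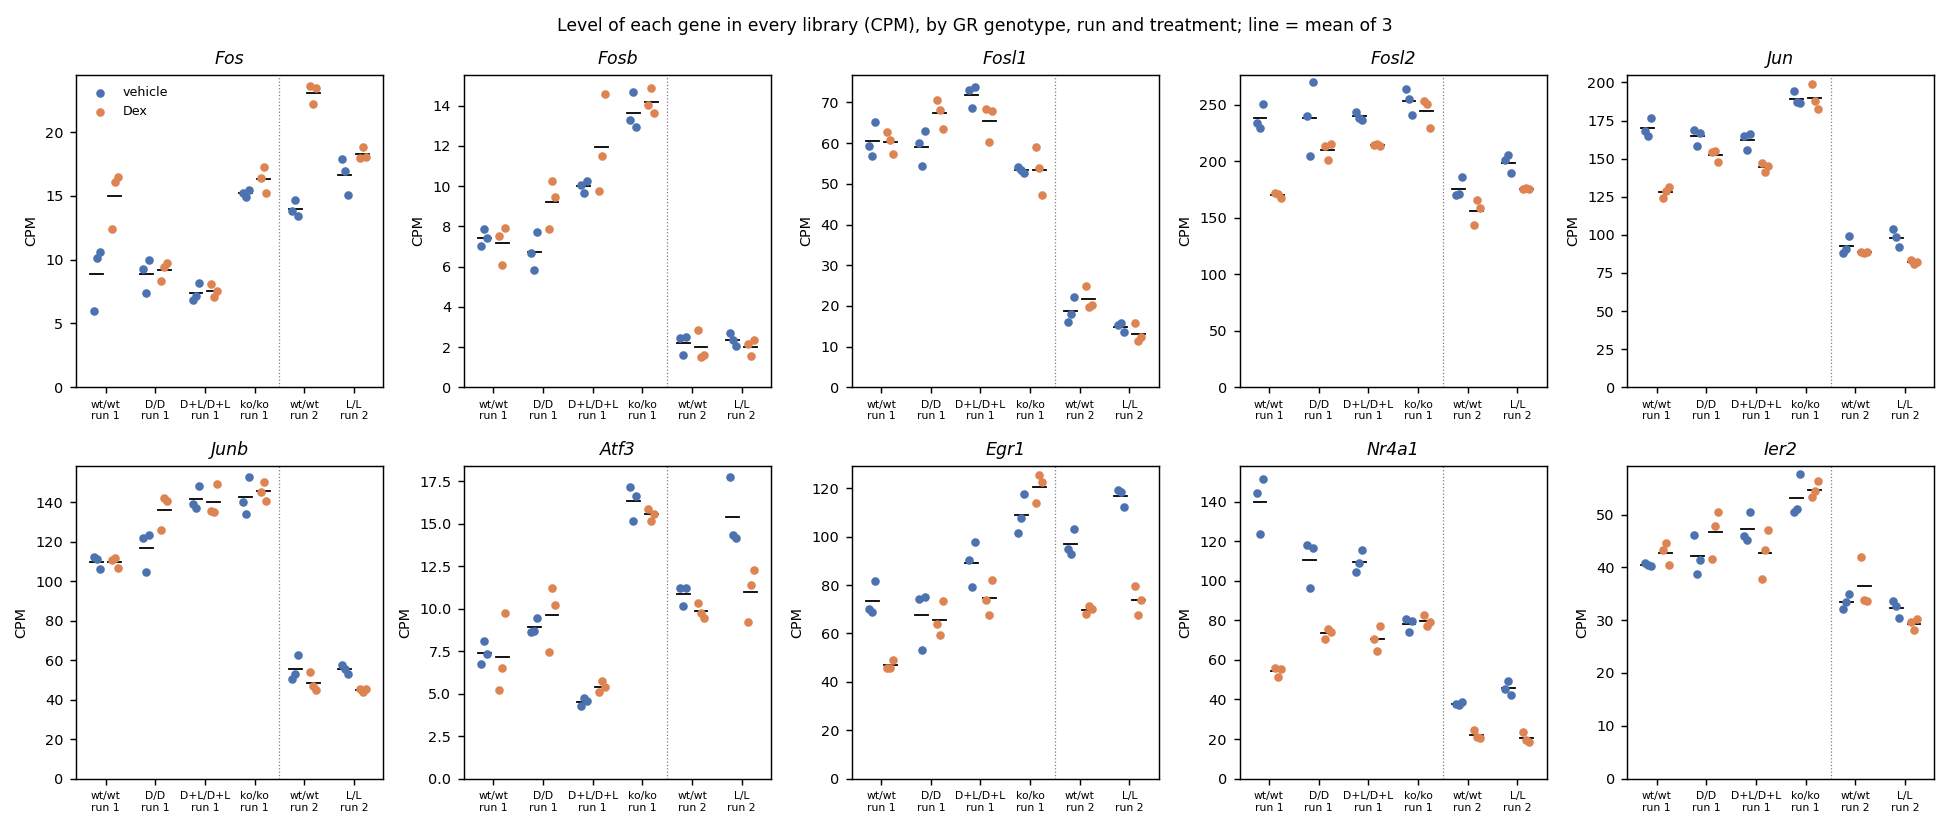
Level of each of the 10 genes in all 36 libraries in CPM (y axis, linear from 0), by genotype and run (x axis), with vehicle in blue and Dex in orange; short lines are means of 3 and the dotted line separates the runs. Fos rose with Dex in both GRwt/wt sets, from 5.97 to 10.6 CPM in run 1 vehicle libraries to 12.4 to 16.5 CPM with Dex, while Nr4a1 fell in all sets but GRko/ko.

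Levels of different genes were compared per kilobase of exon. In GRwt/wt vehicle libraries of run 1 the Jun genes stood highest, with Jun at 53.3 ± 1.90 and Junb at 47.7 ± 1.45 CPM per kb (mean ± SD, n = 3). Nr4a1 followed at 39.8 ± 4.15, then Fosl1 at 29.7 ± 2.14, Ier2 at 26.6 ± 0.172, Fosl2 at 24.6 ± 1.15 and Egr1 at 16.4 ± 1.59 CPM per kb. Fos at 3.79 ± 1.09, Atf3 at 3.43 ± 0.311 and Fosb at 1.19 ± 0.0701 CPM per kb were lowest. Of neighbours in this order only Fos and Atf3 had overlapping ranges. The order differed in run 2, where Jun (29.1 ± 1.88) and Junb (24.0 ± 2.73) were again highest, followed by Ier2 (22.0 ± 0.962), Egr1 (21.6 ± 1.21), Fosl2 (18.2 ± 0.956), Nr4a1 (10.8 ± 0.220), Fosl1 (9.23 ± 1.51), Fos (5.94 ± 0.267), Atf3 (5.05 ± 0.279) and Fosb (0.348 ± 0.0793 CPM per kb). There the ranges of Junb and Ier2, of Ier2 and Egr1, and of Nr4a1 and Fosl1 overlapped. Most exon bases of Fosl1 overlap Ccdc85b, and smaller parts of the exons of Junb and Jun overlap Prdx2 and the antisense gene Junos. Each overlapping gene lies on the opposite strand. The strand setting of the counting was not given in the sources used here, so reads of these pairs may not be separable.

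Within the Fos family, the 2 Fos-related antigens Fosl1 (Fra-1) and Fosl2 (Fra-2), which lack the strong activation domain of Fos, made up most of the signal per length. In run 1 GRwt/wt vehicle libraries Fosl1 held 50.1 ± 1.20% and Fosl2 41.5 ± 0.881% of the family sum (SD, n = 3), against 6.36 ± 1.67% for Fos and 2.01 ± 0.176% for Fosb. Since most exon bases of Fosl1 overlap Ccdc85b, its level per kb may be off if reads of the pair were not separated. Every share given here depends on that level. With Dex the share of Fos was 11.6 ± 1.83% and that of Fosl2 32.1 ± 0.145%. In run 2 GRwt/wt cells the share of Fos was 17.7 ± 1.70% with vehicle and 26.6 ± 0.687% with Dex, and that of Fosl2 54.0 ± 1.17% and 43.7 ± 3.79%. The change in the share of Fos was larger than the SD of either group in both GRwt/wt sets. The same held in GRD+L/D+L, GRko/ko and GRL/L cells, and only GRD/D cells did not meet this measure. It is not a test, and GRko/ko cells met it although 0% of all genes were called with Dex there. Fos itself was not called with Dex in any mutant. In GRD/D cells the share of Fos was 6.43 ± 0.317% with vehicle and 6.49 ± 0.667% with Dex, and in GRD+L/D+L cells 4.84 ± 0.424% and 5.41 ± 0.208%. GRko/ko cells stood at 10.6 ± 0.405% and 11.4 ± 0.524%, and GRL/L cells at 20.04 ± 0.785% and 23.8 ± 1.22%.

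**Figure D2:**
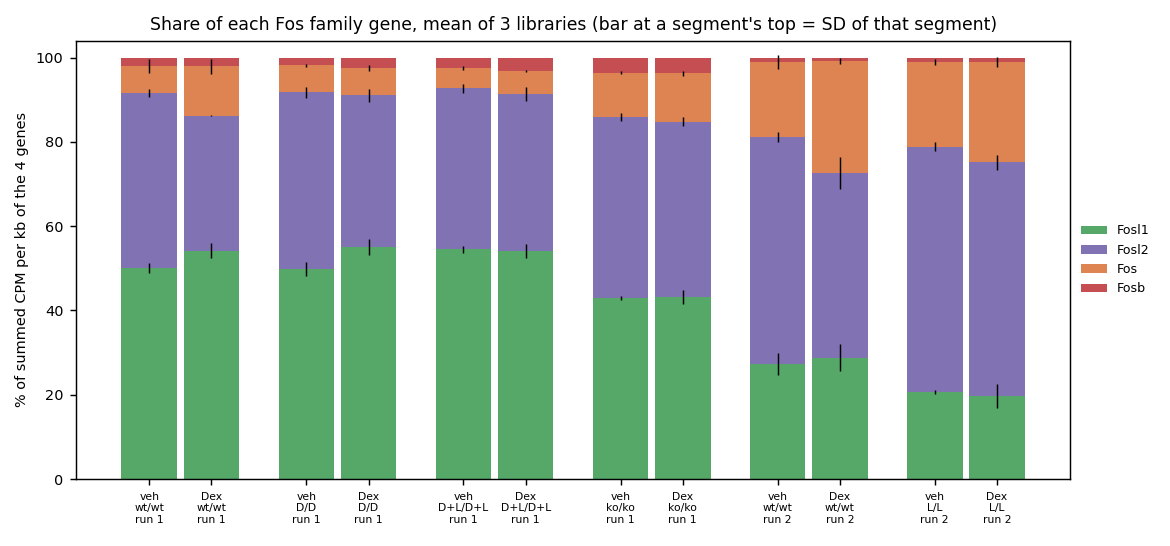
Share of Fosl1, Fosl2, Fos and Fosb in the summed CPM per kb of these 4 genes (y axis, percent), as the mean of 3 libraries per treatment, genotype and run (x axis); black bars are the SD of the segment below and are not drawn for Fosb. The Fos segment was larger with Dex than with vehicle in GRwt/wt cells (11.6 against 6.36% in run 1 and 26.6 against 17.7% in run 2). It was 6.49 against 6.43% in GRD/D, 5.41 against 4.84% in GRD+L/D+L, 11.4 against 10.6% in GRko/ko and 23.8 against 20.04% in GRL/L cells. Reads of Fosl1 and of the overlapping Ccdc85b may not be separable, and all 4 shares depend on the level of Fosl1.

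Fos (chr12:85473890-85477273, GRCm38, plus strand), the founding subunit of AP-1, was the member that rose with Dex in GRwt/wt cells of both runs. In run 1 it was at 5.97, 10.1 and 10.6 CPM in the vehicle libraries and at 12.4, 16.1 and 16.5 CPM in the Dex libraries. In run 2 it was at 13.8, 14.7 and 13.4 CPM with vehicle and at 23.6, 22.2 and 23.5 CPM with Dex. The ranges did not overlap in either run, and the lowest vehicle value was replicate 1 of run 1. The increase was 1.68-fold in run 1 (log2 change 0.75 ± 0.13, adjusted p = 3.35e-05, edgeR quasi-likelihood test) and 1.65-fold in run 2 (log2 change 0.73 ± 0.10, adjusted p = 2.41e-07). It was called in both runs with DESeq2 and every other normalization, filter and sample set that was run and with any 1 library left out, though not with a log2 limit of 1. In the mutants Fos did not pass the test. In GRD/D cells it was at 9.24, 7.42 and 9.99 CPM with vehicle and 8.32, 9.43 and 9.78 CPM with Dex, and in GRD+L/D+L cells at 6.83, 7.16 and 8.16 against 8.09, 7.08 and 7.56 CPM. GRko/ko cells held 15.2, 14.9 and 15.5 CPM with vehicle and 16.4, 17.2 and 15.3 CPM with Dex. GRL/L cells held 17.9, 17.0 and 15.1 CPM and at 18.0, 18.8 and 18.1 CPM. The treatments overlapped in the first 3 of these genotypes, and in GRL/L cells the Dex values lay just above the highest vehicle value. The log2 changes were 0.05 ± 0.14, 0.039 ± 0.15, 0.10 ± 0.11 and 0.13 ± 0.10 in GRD/D, GRD+L/D+L, GRko/ko and GRL/L cells, and none of them passed the test (adjusted p = 0.874, 0.964, 0.962 and 0.402).

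The Fos response was smaller in each of the 4 mutants than in GRwt/wt of the same run by the interaction test. The difference of log2 changes was -0.70 ± 0.19, adjusted p = 0.0266, in GRD/D, -0.71 ± 0.20, adjusted p = 0.0345, in GRD+L/D+L and -0.65 ± 0.17, adjusted p = 0.0117, in GRko/ko cells. For GRL/L against GRwt/wt of run 2 it was -0.59 ± 0.14, adjusted p = 0.0153, and Fos was the only member called there in the main fit. By the same test 6 of the 10 members had an unadjusted p under 0.05 for this difference, as did 1890 of 15489 genes. With vehicle, Fos was at 15.1 to 17.9 CPM in GRL/L and 13.4 to 14.7 CPM in GRwt/wt cells of run 2, a level difference that was not called. The 3 comparisons of run 1 share the same GRwt/wt libraries. With only the run 1 libraries in the fit the GRD/D and GRD+L/D+L differences missed the threshold (adjusted p = 0.0566 and 0.0647), and all 4 differences were lost on leaving out single libraries. For GRko/ko this was GRwt/wt vehicle replicate 1 (difference -0.42, adjusted p = 0.0864) and for GRL/L its own vehicle replicate 1 (0.0626). For GRD/D it was its vehicle replicate 1 or 3, its Dex replicate 1, or GRwt/wt vehicle replicate 1 or Dex replicate 2 or 3 (adjusted p up to 0.13), and for GRD+L/D+L its replicates 2 and 3 of either treatment or the same GRwt/wt libraries (up to 0.146).

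Fosl2 (chr5:32135801-32157842, GRCm38, plus strand), which encodes Fra-2, moved opposite to Fos. In run 1 GRwt/wt cells it was at 234, 229.5 and 251 CPM with vehicle and at 172, 171 and 167 CPM with Dex, with no overlap (log2 change -0.49 ± 0.063, adjusted p = 1.96e-07). In run 2 it was at 170.1, 171 and 186 and 144, 166 and 159 CPM (log2 change -0.17 ± 0.062, adjusted p = 0.0305), a decrease that was lost without Dex replicate 4 (adjusted p = 0.214) or vehicle replicate 6 (0.173). The fall was smaller in run 2 than in run 1 by 0.31 ± 0.088 on the log2 scale (adjusted p = 0.0207), lost without run 1 replicate 3 of either treatment or, in run 2, vehicle replicate 4 or replicate 5 of either treatment (up to 0.071). Fosl2 in GRL/L cells was at 201, 206 and 189 CPM with vehicle and 175, 176 and 176 CPM with Dex. GRD+L/D+L cells held 244, 238 and 237 CPM with vehicle and 215, 215 and 214 CPM with Dex, without overlap, but did not pass the test (log2 change -0.16 ± 0.062, adjusted p = 0.17). In GRL/L cells, too, all 3 Dex values lay below all vehicle values (log2 change -0.18 ± 0.061, adjusted p = 0.037). In GRD/D cells the log2 change was -0.18 ± 0.062, adjusted p = 0.0482, with overlapping treatments, and it was -0.28 without vehicle replicate 2 and -0.083 without vehicle replicate 3. The GRL/L call was lost with DESeq2, with run as a term (adjusted p up to 0.0879) and without any library but vehicle replicate 3 (0.151), and the GRD/D call under 5 of 7 alternatives (0.107) and without any library but vehicle replicate 2 (0.402).

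In GRko/ko cells Fosl2 stayed at 241 to 264 CPM with vehicle and 229 to 254 CPM with Dex, and its response differed from that of GRwt/wt by 0.43 ± 0.088, adjusted p = 0.000696. The GRD/D and GRD+L/D+L responses differed by 0.30 ± 0.088, adjusted p = 0.0497, and by 0.33 ± 0.088, adjusted p = 0.0284. With run as a term the GRko/ko difference was 0.27 and still called. The other differences were 0.14 and 0.17 in that fit and not called (adjusted p = 0.428 and 0.3), and each was lost on leaving out most single libraries, 9 of 12 for GRD/D (up to 0.212) and 8 of 12 for GRD+L/D+L (up to 0.105). The libraries whose removal kept the call were GRD/D Dex replicate 2 and vehicle replicate 3 and GRwt/wt vehicle replicate 2 in the former, and GRD+L/D+L vehicle replicate 1, GRwt/wt Dex replicate 1 and GRwt/wt vehicle replicates 1 and 2 in the latter.

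Fosl1 (chr19:5447547-5455946, GRCm38, plus strand) and Fosb (chr7:19302696-19310051, GRCm38, minus strand) did not pass the test for Dex in any genotype with all libraries in the fit. Fosl1 was at 56.8 to 65.3 CPM with vehicle and 57.4 to 62.8 CPM with Dex in run 1 GRwt/wt cells, and its log2 changes lay between -0.18 in GRL/L and 0.21 in run 2 GRwt/wt cells (adjusted p = 0.316 and 0.124). Its Dex values lay above the vehicle values in GRD/D cells (63.55 to 70.6 against 54.4 to 63.1 CPM). They lay below in GRD+L/D+L cells (60.2 to 68.51 against 68.56 to 73.75 CPM). Fosb, for which a truncated splice form without the activation domain is well known, was low, at 7.01 to 7.88 CPM in run 1 and 1.60 to 2.49 CPM in run 2 GRwt/wt vehicle libraries. Its largest change was in GRD/D cells, from 6.70, 5.82 and 7.71 CPM with vehicle to 7.86, 10.3 and 9.44 CPM with Dex (log2 change 0.45 ± 0.16, adjusted p = 0.0628). The GRD/D treatments did not overlap, but the change did not pass the threshold.

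Jun (chr4:95049034-95052222, GRCm38, minus strand), the main partner of Fos proteins, fell with Dex in run 1 GRwt/wt cells, from 168, 165 and 177 CPM to 124, 129 and 131 CPM (log2 change -0.41 ± 0.047, adjusted p = 1.3e-08). In run 2 GRwt/wt cells it was at 88.2, 90.5 and 99.6 CPM with vehicle and 88.8, 88.0 and 88.4 CPM with Dex, and did not pass the test (log2 change -0.069 ± 0.046, adjusted p = 0.272). The treatments were apart in run 1 and overlapped in run 2, and the responses of the runs differed by 0.34 ± 0.066, adjusted p = 0.000498. In GRL/L cells, sequenced with the second set, Jun fell from 104, 98.8 and 92.1 CPM to 83.6, 81.1 and 82.5 CPM (log2 change -0.25 ± 0.046, adjusted p = 6.5e-05). The GRL/L and GRwt/wt responses of run 2 were not called different (-0.18 ± 0.066, unadjusted 95% interval -0.31 to -0.056, adjusted p = 0.18). GRD+L/D+L cells showed a small decrease, from 165, 156 and 166 CPM to 147, 141 and 145 CPM (log2 change -0.17 ± 0.047, adjusted p = 0.0234), which was lost with no filter, with run as a term (adjusted p up to 0.15) and without Dex replicate 2 or 3 or vehicle replicate 1 or 3 (up to 0.126). The Jun change in GRD/D cells was -0.11 ± 0.046 (adjusted p = 0.122) and in GRko/ko cells 0.0051 ± 0.046 (adjusted p = 0.998). Though not called, the GRD/D values with Dex (148 to 155 CPM) lay below those with vehicle (158 to 169 CPM).

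Against GRwt/wt of run 1, the Jun response differed by 0.30 ± 0.066, adjusted p = 0.00366, in GRD/D, by 0.24 ± 0.066, adjusted p = 0.0307, in GRD+L/D+L and by 0.41 ± 0.065, adjusted p = 1.49e-05, in GRko/ko cells, each with the sign of a smaller fall. With run as a term, which sets each mutant against the GRwt/wt libraries of both runs, the first 2 were 0.13 and 0.070 and not called (adjusted p = 0.386 and 0.675) and the GRko/ko difference was 0.24. The GRD+L/D+L difference was also lost with no filter on low counts and without its Dex replicate 1 or 3 or vehicle replicate 2, or GRwt/wt Dex replicate 1 or 2 or vehicle replicate 3 (up to 0.119).

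Junb (chr8:84974484-84978718, GRCm38, minus strand), often an antagonist of Jun at shared sites, moved in different directions. In run 1 GRwt/wt cells it was at 106 to 112 CPM with vehicle and 107 to 112 CPM with Dex (log2 change 0.0012 ± 0.069, adjusted p = 0.996). A fall was seen in GRL/L cells, from 57.4, 55.7 and 53.0 CPM to 45.5, 43.6 and 45.3 CPM, with no overlap (log2 change -0.31 ± 0.071, adjusted p = 0.00136). In run 2 GRwt/wt cells it was at 50.5, 53.0 and 62.4 and 53.8, 46.8 and 44.6 CPM, with overlapping treatments (log2 change -0.19 ± 0.071, adjusted p = 0.0349). With Dex it was higher in GRD/D cells, at 126, 142 and 140.4 CPM against 122, 105 and 123 CPM, again without overlap (log2 change 0.23 ± 0.068, adjusted p = 0.0247). The last 2 calls were weak. That of run 2 GRwt/wt was lost with only the libraries of the run, with the replicate block (adjusted p up to 0.0711) and without Dex replicate 5 or 6 or vehicle replicate 6 (log2 change -0.096 without the last, adjusted p = 0.353), and that of GRD/D without Dex replicate 2 or 3 or vehicle replicate 2 (up to 0.199). No Junb response difference between a mutant and GRwt/wt passed the threshold in the main fit (lowest adjusted p = 0.316, in GRD/D). With run as a term the GRD/D difference was 0.32 and was called (adjusted p = 0.0197).

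Atf3 (chr1:191170296-191218039, GRCm38, minus strand), a stress-induced factor that mostly represses, was called with Dex in GRL/L cells alone among the 6 sets. There it fell from 17.7, 14.4 and 14.2 CPM to 9.20, 11.4 and 12.3 CPM, with no overlap (log2 change -0.49 ± 0.11, adjusted p = 0.00146). In run 2 GRwt/wt cells it was at 11.2, 10.2 and 11.2 and 10.3, 9.73 and 9.44 CPM (log2 change -0.14 ± 0.12, adjusted p = 0.397). GRD+L/D+L cells held 4.27 to 4.73 CPM with vehicle and 5.09 to 5.74 CPM with Dex, higher without overlap but not called. The GRL/L and GRwt/wt responses were not called different (-0.35 ± 0.17, unadjusted 95% interval -0.68 to -0.018, adjusted p = 0.397). The summed macrophage markers in GRL/L cells were at 829 to 987 CPM with vehicle and 686 to 861 CPM with Dex, where 5 of the 10 were called lower and 1 higher, and their part in the Atf3 result was not tested.

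Nr4a1 (chr15:101254269-101274795, GRCm38, plus strand), an orphan nuclear receptor also known as Nur77, had the largest Dex change of the 10 genes and was lower with Dex in every set except GRko/ko. In run 1 GRwt/wt cells it was at 144, 124 and 152 CPM with vehicle and at 56.1, 51.1 and 55.6 CPM with Dex. In run 2 it was at 37.8, 37.0 and 38.5 CPM and at 24.4, 21.1 and 20.6 CPM. In both sets the treatments were far apart, with the highest Dex value well below the lowest vehicle value. Dex left 0.388 of the vehicle level in run 1 (log2 change -1.36 ± 0.081, adjusted p = 6.52e-16) and 0.583 in run 2 (log2 change -0.78 ± 0.087, adjusted p = 3.64e-09). The fall was smaller in run 2 by 0.59 ± 0.12, adjusted p = 0.000877. Nr4a1 in GRL/L cells went from 45.5, 49.5 and 42.2 CPM to 23.5, 19.5 and 18.6 CPM (log2 change -1.16 ± 0.086, adjusted p = 2.94e-13), a response not called different from that of GRwt/wt of run 2 (-0.38 ± 0.12, unadjusted 95% interval -0.62 to -0.14, adjusted p = 0.123).

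The DNA-binding domain mutants kept a smaller decrease of Nr4a1. For GRD/D cells it went from 118, 96.6 and 117 CPM to 70.4, 75.8 and 74.3 CPM (log2 change -0.59 ± 0.079, adjusted p = 1.06e-06). In GRD+L/D+L cells it went from 105, 109 and 116 CPM to 70.7, 64.6 and 77.2 CPM (log2 change -0.63 ± 0.08, adjusted p = 4.23e-07). The treatments did not overlap in either genotype. In GRko/ko cells Nr4a1 was at 80.6, 74.4 and 80.0 CPM with vehicle and 82.7, 77.0 and 79.2 CPM with Dex (log2 change 0.025 ± 0.08, adjusted p = 0.992). The response differed from that of GRwt/wt of run 1 by 0.78 ± 0.11, adjusted p = 9.39e-06, in GRD/D, by 0.73 ± 0.11, adjusted p = 2.89e-05, in GRD+L/D+L and by 1.39 ± 0.11, adjusted p = 1.07e-11, in GRko/ko cells. With run as a term the first 2 differences were 0.51 and 0.46 and still passed the threshold. With Dex, the level in GRwt/wt cells of run 1 (51.1 to 56.1 CPM) lay below that of GRko/ko cells (77.0 to 82.7 CPM), whereas with vehicle it lay above (124 to 152 against 74.4 to 80.6 CPM).

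Egr1 (chr18:34859823-34864984, GRCm38, plus strand), a zinc finger factor of the serum response, fell with Dex in both GRwt/wt sets and in GRL/L cells. In run 1 GRwt/wt cells it was at 70.3, 68.7 and 81.8 CPM with vehicle and 45.8, 45.7 and 48.9 CPM with Dex (log2 change -0.65 ± 0.10, adjusted p = 3.84e-06). In run 2 it was at 94.9, 92.8 and 103 and 67.9, 71.2 and 70.0 CPM (log2 change -0.48 ± 0.089, adjusted p = 5.45e-05). GRL/L cells held 119, 119 and 112 and 79.6, 67.8 and 73.7 CPM (log2 change -0.66 ± 0.088, adjusted p = 2.68e-07). No treatment ranges overlapped in these 3 sets, and the calls held without any 1 library and under every alternative that was run except a log2 limit of 1. The GRD/D ranges were 53.3 to 75.1 and 59.2 to 73.6 CPM (log2 change -0.041 ± 0.10, adjusted p = 0.846). GRD+L/D+L cells held 90.2, 79.0 and 97.6 CPM with vehicle and 73.9, 67.5 and 82.1 CPM with Dex, where the log2 change of -0.26 ± 0.094 had an adjusted p of 0.133. GRko/ko cells held 102, 108 and 118 and 114, 125 and 123 CPM (log2 change 0.15 ± 0.09, adjusted p = 0.935). The Egr1 response differed from GRwt/wt of run 1 in GRD/D (0.61 ± 0.14, adjusted p = 0.00485) and GRko/ko cells (0.80 ± 0.13, adjusted p = 3.95e-05), and in GRD+L/D+L cells the difference was 0.40 ± 0.14, adjusted p = 0.13.

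Ier2 (chr8:84661331-84662852, GRCm38, minus strand), a small nuclear protein induced by serum, did not pass the test for Dex in any set. It was at 40.2 to 40.8 CPM with vehicle and at 40.5 to 44.6 CPM with Dex in run 1 GRwt/wt cells. Its log2 changes lay between -0.14 in GRD+L/D+L and 0.15 in GRD/D cells (adjusted p = 0.45 and 0.25). Treatments did not overlap in GRL/L cells, at 30.4 to 33.6 CPM with vehicle and 28.1 to 30.2 CPM with Dex.

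**Figure D3:**
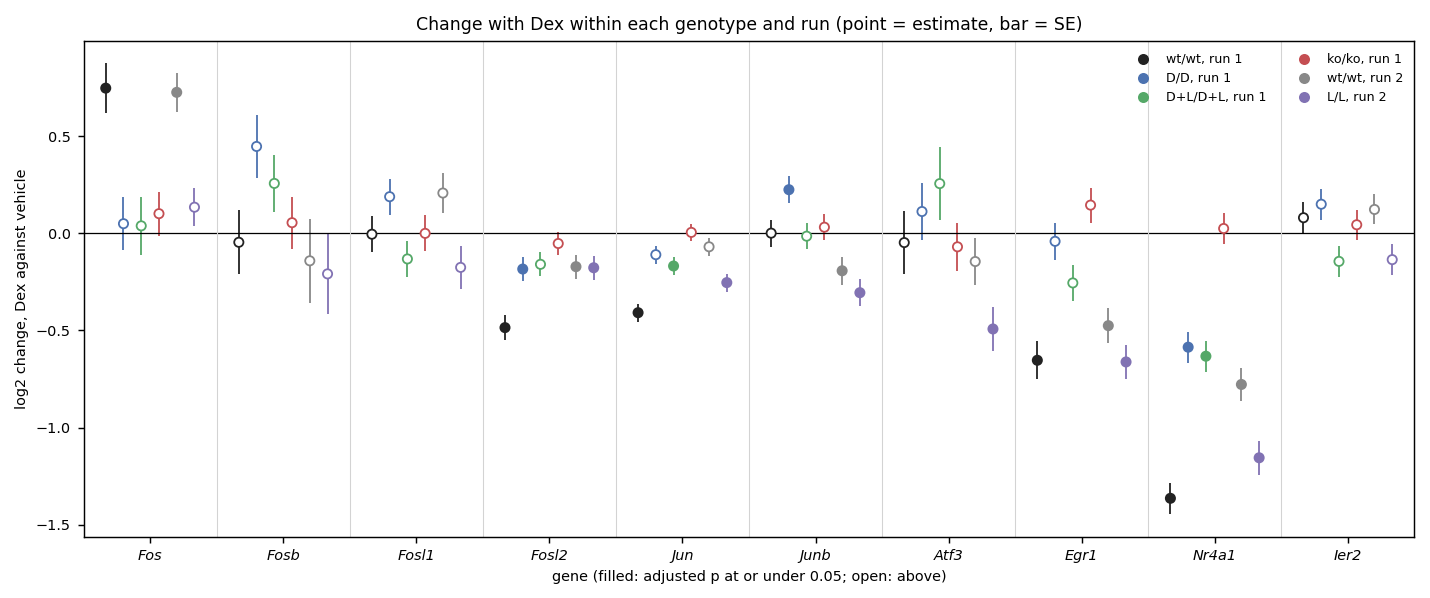
Log2 change of each gene with Dex against vehicle (y axis) for the 10 genes (x axis) in each genotype and run (colours), with bars for the SE; filled points passed an adjusted p of 0.05. Nr4a1 fell by 1.36 in run 1 GRwt/wt cells and by 0.59 in GRD/D cells, Fos rose by 0.75 and 0.73 in the GRwt/wt sets and its mutant points were open, and all GRko/ko points were open.

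Counted over the members, 5 of 10 were called with Dex in GRwt/wt of run 1 (13.9% of all genes tested were called there) and 5 of 10 in GRwt/wt of run 2 (31.6%). Fos was the 1 that rose in each (7.74% and 14.9% of all genes rose), and 4 fell in each (6.2% and 16.7% of all genes fell). Fosl2, Egr1 and Nr4a1 fell in both runs, Jun in run 1 and Junb in run 2. In GRL/L cells 6 of 10 were called (19.1% of all genes), all of them lower (10.4%) and none higher (8.79%). In GRD/D cells 3 of 10 were called (11.9%), Junb higher (5.63%) and Fosl2 and Nr4a1 lower (6.24%). In GRD+L/D+L cells 2 of 10 were called (5%), Jun and Nr4a1, both lower (1.92%) and none higher (3.08%). In GRko/ko cells edgeR called 0 of 10 members and 0% of all genes. There 0 members and 859 of 15489 genes had an unadjusted p under 0.05, and DESeq2 called 0 members and 1 gene. No filter on low counts gave 110 called genes in GRko/ko cells and no member.

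Response differences against GRwt/wt of the same run were called for 5 of 10 members in GRD/D (3.29% of all genes tested), 4 in GRD+L/D+L (3.23%), 5 in GRko/ko (8.48%) and 1 in GRL/L cells (1.85%). Fos, Fosl2, Jun and Nr4a1 were called in all 3 mutants of run 1, which share their GRwt/wt libraries, and Egr1 in GRD/D and GRko/ko cells. For each of these calls of run 1 the sign was that of a smaller response in the mutant. The GRwt/wt sets of the 2 runs themselves differed in response for 3 of 10 members (7.09% of all genes), Fosl2, Jun and Nr4a1, each falling less in run 2. Without GRwt/wt vehicle replicate 6 of run 2, which stood apart in epithelial markers, 4 members were called with Dex in that set, where Fosl1 was then called higher (log2 change 0.34, adjusted p = 0.014) and Fosl2 and Junb were not called. In GRL/L cells, 2 response differences were then called, that of Jun (-0.24, adjusted p = 0.0471) besides Fos, and 4 vehicle levels, with Fosl2 higher (0.22, adjusted p = 0.0343) and Fosl1 not called.

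**Figure D4:**
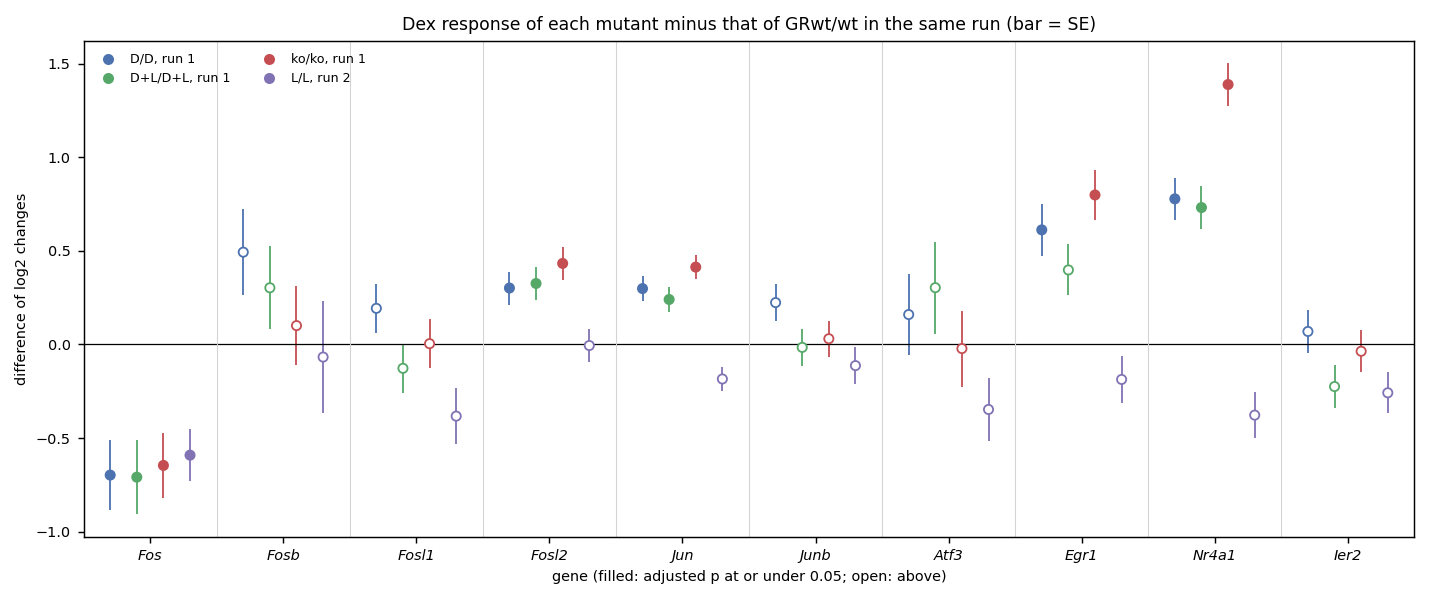
Dex response of each mutant minus that of GRwt/wt in the same run, as a difference of log2 changes (y axis), for the 10 genes (x axis), with bars for the SE; filled points passed an adjusted p of 0.05. Fos lay between -0.71 and -0.59 in all 4 mutants, Nr4a1 between 0.73 and 1.39 in the mutants of run 1, and the GRL/L points of the other 9 genes were open.

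Without Dex, the level of the members also differed between genotypes, most widely in GRko/ko cells, where 8 of 10 were called against GRwt/wt (45.7% of all genes tested were called). Of these, 7 were higher (24.4% of all genes) and Nr4a1 was lower (21.3%). Atf3 was at 17.2, 15.2 and 16.6 CPM in GRko/ko and 6.75, 8.08 and 7.33 CPM in GRwt/wt vehicle libraries, 2.21-fold higher (log2 difference 1.14 ± 0.14, adjusted p = 1.35e-08). Fosb was at 13.3, 14.7 and 13.0 against 7.01, 7.88 and 7.40 CPM (log2 difference 0.88 ± 0.15, adjusted p = 6.65e-06). Fos was higher too (log2 difference 0.77 ± 0.13, adjusted p = 3.83e-06), and with vehicle it reached 14.9 to 15.5 CPM, within the span of the Dex-treated GRwt/wt cells of the run (12.4 to 16.5 CPM). The ranges of GRko/ko and GRwt/wt vehicle libraries did not overlap for any of these 3 genes. Egr1 (0.57 ± 0.093, adjusted p = 3.7e-06), Ier2 (0.39 ± 0.081, adjusted p = 0.000111), Junb (0.38 ± 0.068, adjusted p = 1.95e-05) and Jun (0.16 ± 0.046, adjusted p = 0.00501, and 0.24 with run as a term) were also higher. Nr4a1 was lower, at 80.6, 74.4 and 80.0 against 144, 124 and 152 CPM (log2 difference -0.84 ± 0.078, adjusted p = 2.19e-11). Fosl1 and Fosl2 differed by -0.18 ± 0.093 and 0.091 ± 0.062 and did not pass the test (adjusted p = 0.116 and 0.244). With run as a term the Fosl2 difference was 0.17 and was called (adjusted p = 0.0375). All 10 macrophage markers were higher in GRko/ko than in GRwt/wt vehicle libraries (sums of 2790 to 3120 against 187 to 327 CPM), and so were all 5 tested chondrocyte markers (sums of 180 to 551 against 18.9 to 21.1 CPM), and the sex-linked transcripts differed as given above. Their part in these differences was not tested. If the knockout line was on another background, strain cannot be told apart from genotype here either.

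In GRD+L/D+L vehicle libraries 7 of 10 members were called against GRwt/wt of run 1 (29.9% of all genes tested), 5 higher (13.9%) and 2 lower (15.9%). Junb was at 139, 137 and 148 against 112, 111 and 106 CPM (log2 difference 0.37 ± 0.069, adjusted p = 7.07e-05), with no overlap. Fosb (0.43 ± 0.16, adjusted p = 0.0379), Egr1 (0.27 ± 0.094, adjusted p = 0.0266), Fosl1 (0.25 ± 0.092, adjusted p = 0.039) and Ier2 (0.22 ± 0.082, adjusted p = 0.0382) were higher by less secure margins. Fosb was lost on leaving out any 1 of the 6 libraries (adjusted p up to 0.113). Egr1 and Fosl1 were lost without GRD+L/D+L replicate 1 or 3 or GRwt/wt replicate 1 or 2 (up to 0.173 and 0.166), and Ier2 without any of these or GRwt/wt replicate 3 (0.184). Atf3 was lower, at 4.27, 4.73 and 4.56 CPM (log2 difference -0.71 ± 0.18, adjusted p = 0.00218), and so was Nr4a1, at 105, 109 and 116 CPM (log2 difference -0.35 ± 0.077, adjusted p = 0.000549). Of the macrophage markers 9 of 10 were lower in GRD+L/D+L cells and none was higher, as were 6 of 8 fibroblast markers, and their part in these differences was not tested.

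In GRD/D vehicle libraries 1 of 10 members was called (9.55% of all genes tested), Nr4a1, which was lower (3.89%) at 118, 96.6 and 117 CPM (log2 difference -0.34 ± 0.077, adjusted p = 0.0022), and none was higher (5.66%). GRD/D and GRwt/wt cells of run 1 shared their sex-linked transcripts, whereas 9 of 10 macrophage markers were higher in GRD/D cells. In GRL/L vehicle libraries 4 of 10 were called against GRwt/wt of run 2 (11.3%), 3 higher (6.88%) and 1 lower (4.47%). Atf3 was higher, at 17.7, 14.4 and 14.2 against 11.2, 10.2 and 11.2 CPM with no overlap (log2 difference 0.50 ± 0.11, adjusted p = 0.0022). Nr4a1 (0.28 ± 0.081, adjusted p = 0.0201) and Egr1 (0.27 ± 0.087, adjusted p = 0.0379) were higher and Fosl1 (-0.34 ± 0.11, adjusted p = 0.0315) was lower. Of the macrophage markers 9 of 10 were higher in GRL/L vehicle libraries (sums of 829 to 987 against 470 to 494 CPM), as were 3 of 5 tested chondrocyte markers, and 3 of 4 tested epithelial markers were lower, and their part was not tested. The calls of Nr4a1, Egr1 and Fosl1 were weak. Nr4a1 was lost with run as a term (0.13, adjusted p = 0.45) and without GRL/L replicate 1 or 2 or GRwt/wt replicate 4 or 5 (up to 0.149). Egr1 was lost with DESeq2, with run as a term (up to 0.0733) and without any library but GRwt/wt replicate 6 (0.154). Fosl1 was lost with only the libraries of the run (0.0999) and without GRL/L replicate 1 or 3 or GRwt/wt replicate 5 or 6 (log2 difference -0.20 without the last, adjusted p = 0.312). With run as a term, the lower Nr4a1 of GRD/D and GRD+L/D+L cells (-0.22 and -0.23) was not called either (adjusted p = 0.126 and 0.0619).

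**Figure D5:**
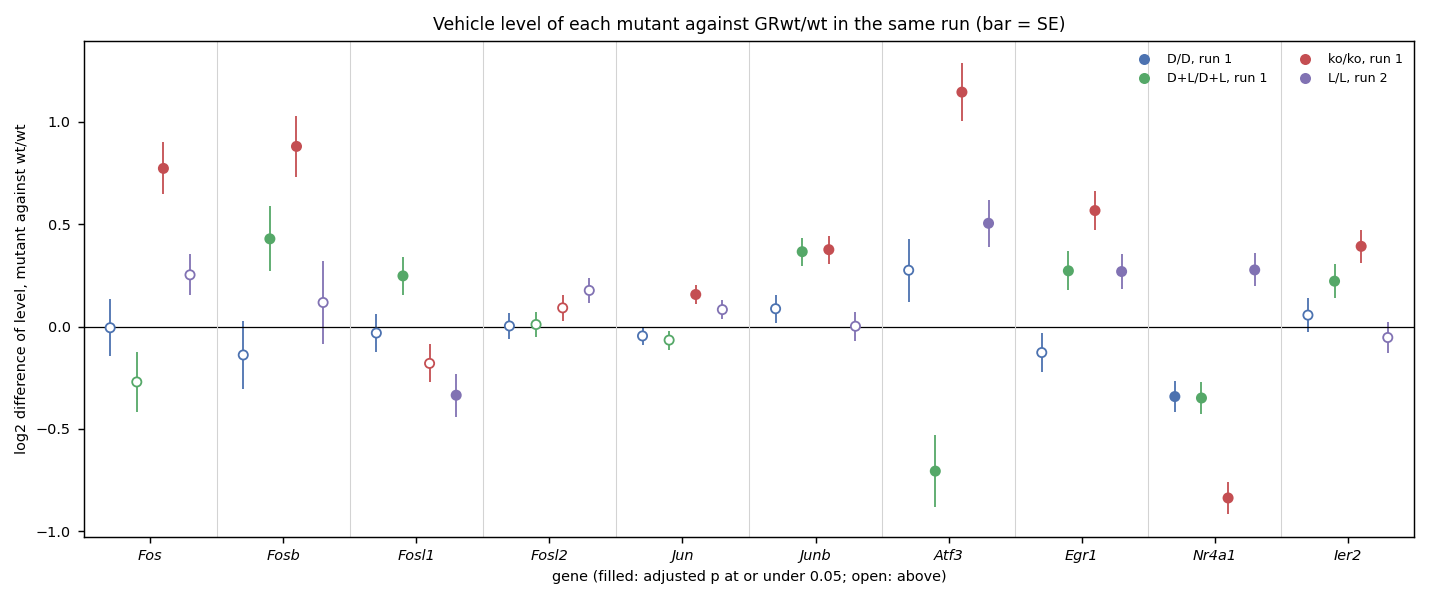
Level of each gene in vehicle-treated mutant cells against vehicle-treated GRwt/wt cells of the same run, as a log2 difference (y axis), for the 10 genes (x axis), with bars for the SE; filled points passed an adjusted p of 0.05. Atf3 ran from -0.71 in GRD+L/D+L to 1.14 in GRko/ko cells, and Nr4a1 was lower in the mutants of run 1 and higher (0.28) in GRL/L cells.

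Among run 1 vehicle libraries, Atf3 was ordered from GRD+L/D+L (4.27 to 4.73 CPM) through GRwt/wt (6.75 to 8.08 CPM) and GRD/D (8.64 to 9.44 CPM) to GRko/ko (15.2 to 17.2 CPM), with no overlap between neighbours, although the step from GRwt/wt to GRD/D did not pass the test (log2 difference 0.27 ± 0.15, adjusted p = 0.301). The summed macrophage markers stood in the same order, and their part in the Atf3 levels was not tested. The tested gene whose level was most like that of Atf3 over all 36 libraries (Pearson r of run-centred log2 CPM, 11780 genes compared, libraries sharing cultures and runs) was Lat2, an adaptor of myeloid and B cells (r = 0.96). Centring by run keeps the differences between genotypes in r. For the other members the nearest genes were Phka2 for Fos (0.90), Marcksl1 for Fosb (0.83) and for Junb (0.84), Slc2a1 for Fosl1 (0.83), Pcdh19 for Fosl2 (0.88), Gjb2 for Jun (0.90), Unc119 for Egr1 (0.93), Tnk2 for Nr4a1 (0.93) and Ssbp4 for Ier2 (0.83). Among members, the nearest to Jun was Egr1 (0.85), to Fosl2 it was Jun (0.82), and to Fosb it was Junb (0.78).

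Levels also differed between the GRwt/wt sets of the 2 runs, which no test compared because run, sex-linked transcripts and culture cannot be told apart. With vehicle, Fosl1 was at 56.8 to 65.3 CPM in run 1 and 16.1 to 22.1 CPM in run 2, Nr4a1 at 124 to 152 and 37.0 to 38.5 CPM, and Fosb at 7.01 to 7.88 and 1.60 to 2.49 CPM. Jun and Junb were lower in run 2 as well, at 88.2 to 99.6 and 50.5 to 62.4 CPM. Fos (13.4 to 14.7 CPM in run 2 against 5.97 to 10.6 CPM in run 1), Egr1 (92.8 to 103 against 68.7 to 81.8 CPM) and Atf3 (10.2 to 11.2 against 6.75 to 8.08 CPM) were higher in run 2. Fosl2 (170.1 to 186 CPM in run 2 against 229.5 to 251 CPM in run 1) and Ier2 (32.1 to 35.0 against 40.2 to 40.8 CPM) were lower in run 2. How often the ranges of other genes lay apart between the runs was not counted.

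Genes around the members in the pathway were counted by list. Of 14 known AP-1 target genes, 1 rose and 9 fell with Dex in run 1 GRwt/wt cells (median log2 change -0.34, against -0.0018 over all genes tested), and 1 rose and 13 fell in run 2 (median -0.97, against -0.011). The GRL/L counts were 1 up and 11 down, with 1 and 5 in GRD/D, 0 and 3 in GRD+L/D+L and none called in GRko/ko cells. Of all genes 6.2% fell in run 1, 16.7% in run 2, 10.4% in GRL/L, 6.24% in GRD/D and 1.92% in GRD+L/D+L cells. The shares that rose were 7.74%, 14.9%, 8.79%, 5.63% and 3.08% in the same order. By the mean of both runs, the largest decreases called in both GRwt/wt sets were those of Il6, an inflammatory cytokine (-2.24 ± 0.17 in run 1 and -2.76 ± 0.19 in run 2), Mmp10, a matrix metalloproteinase (-1.10 ± 0.16 and -2.64 ± 0.22), and Ccl2, a monocyte chemokine (-1.14 ± 0.11 and -2.59 ± 0.11). Il6 still fell in GRD/D cells (-1.06 ± 0.14, adjusted p = 4.57e-07) and in GRD+L/D+L cells (-0.88 ± 0.13, adjusted p = 1.27e-05), by less than in GRwt/wt (differences of 1.18 ± 0.23, adjusted p = 0.000898, and 1.37 ± 0.23, adjusted p = 7.64e-05). Ccnd1, a cyclin, was the target that rose in both GRwt/wt sets (log2 change 0.55 and 0.63), and is named here after its values were seen.

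Of 33 other immediate early genes, 11 rose and 12 fell in run 1 GRwt/wt cells (7.74% and 6.2% of all genes; median of the list -0.033) and 14 rose and 13 fell in run 2 (14.9% and 16.7%; median -0.031). The GRL/L counts were 12 up and 13 down (8.79% and 10.4% of all genes), with 8 and 8 in GRD/D (5.63% and 6.24%), 5 and 9 in GRD+L/D+L (3.08% and 1.92%) and none called in GRko/ko cells. By the mean of both runs among genes called in both, the largest changes were decreases of Ptgs2, the inducible cyclooxygenase (-1.12 ± 0.068 in run 1, -2.21 ± 0.084 in run 2), Egr3, a relative of Egr1 (-1.34 ± 0.19 and -1.28 ± 0.13), and Nr4a3, a relative of Nr4a1 (-1.69 ± 0.18 and -0.70 ± 0.18). Nr4a3 fell in GRD/D cells too (-1.51 ± 0.18, adjusted p = 6.85e-08), and its response was not called different from that of GRwt/wt there (0.18 ± 0.26, adjusted p = 0.903). Among 10 tested genes of 12 further AP-1, ATF and Maf factors, 3 rose and none fell in run 1 GRwt/wt cells (median 0.093), and 3 rose and 4 fell in run 2 (median 0.015), against 13.9% and 31.6% of all genes called in either direction. Maf (0.43 ± 0.12 and 0.73 ± 0.08), Mafk (0.29 ± 0.051 and 0.24 ± 0.058) and Jdp2, a repressor of AP-1 (0.27 ± 0.053 and 0.22 ± 0.049), rose in both. In GRD/D cells 4 rose and 0 fell (5.63% and 6.24% of all genes). In GRL/L cells 2 rose and 1 fell (8.79% and 10.4%), and none was called in GRD+L/D+L (3.08% and 1.92%) or GRko/ko cells.

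Of 20 upstream factors and kinases, such as serum response factor, its partners and CREB, 3 rose and 1 fell in run 1 GRwt/wt cells (median -0.020). Of all genes 7.74% rose and 6.2% fell there. In run 2, 3 rose and 6 fell (median -0.078), against 14.9% and 16.7% of all genes. Elk3, a ternary complex factor, fell in both (-0.32 ± 0.044 and -0.48 ± 0.044), and Mrtfa, a coactivator of serum response factor, rose in both (0.38 ± 0.079 and 0.30 ± 0.083). In GRL/L cells 2 rose and 2 fell (8.79% and 10.4% of all genes), and in GRD/D cells 2 and 0 (5.63% and 6.24%). In GRD+L/D+L cells the counts were 0 and 1 (3.08% and 1.92%), and in GRko/ko cells none was called.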

How the data were processed

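RNA was sequenced by the authors (TruSeq libraries), aligned to mm10 with HISAT2 2.1.0, and uniquely mapped reads were counted per gene with featureCounts 2.0.0. The deposited values are raw counts, not normalized, for 55487 genes in 36 libraries, and every column was used. The strand setting and annotation release were not given in the sources used here. Groups came from the sample labels.

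From these counts, edgeR 4.0.16 (R 4.3.3, limma 3.58.1) fitted 12 groups of genotype, run and treatment over all libraries, with TMM factors and the filterByExpr filter, which left 15489 genes. The quasi-likelihood test was used for each contrast, with Benjamini-Hochberg adjustment over all genes tested, and a gene was called at an adjusted p of 0.05 or less. A response difference is the Dex change of a mutant minus that of GRwt/wt. Errors of log2 values are SE, n = 3 libraries a group. Levels are CPM scaled by TMM, and log2 CPM used a prior count of 2. The fit was also run on simulated counts, which held no differences between runs or cultures and so say nothing about those. Libraries held 15280166 to 28662608 reads, which sets the precision of low genes such as Fosb, and no pair of libraries in a group agreed within sampling noise. Alternatives were DESeq2 1.42.0, its size factors in edgeR, other filters on low counts, run as a term (the study's design), only the libraries of 1 run, a replicate block, leaving out each library, and a log2 limit of 1. Figures were drawn with matplotlib 3.10.9.

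The members and gene lists were chosen with earlier results of these data known. All 10 members are named. From other lists up to 3 genes are named, those with the largest mean change among genes called in the same direction in both GRwt/wt sets, and for each member the gene most like it in run-centred log2 CPM of those averaging 50 or more counts. The values of 1 gene that this rule would name are not reported here.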

Additional observations from a re-analysis of the deposited data

Results flagged for a closer look

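The Dex response of 5 members differed between genotypes by the test of the difference itself (log2 change of the mutant minus that of GRwt/wt of the same run, from the edgeR fit, p-values adjusted over all genes tested). For Fos the difference was -0.70 in GRD/D (adjusted p = 0.0266), -0.71 in GRD+L/D+L (0.0345), -0.65 in GRko/ko (0.0117) and -0.59 in GRL/L cells (0.0153). For Nr4a1 it was 0.78 in GRD/D (adjusted p = 9.39e-06), 0.73 in GRD+L/D+L (2.89e-05) and 1.39 in GRko/ko cells (1.07e-11). For Jun it was 0.30, 0.24 and 0.41 in the same 3 genotypes (adjusted p = 0.00366, 0.0307 and 1.49e-05). For Fosl2 it was 0.30, 0.33 and 0.43 (adjusted p = 0.0497, 0.0284 and 0.000696). Egr1 differed by 0.61 in GRD/D and 0.80 in GRko/ko cells (adjusted p = 0.00485 and 3.95e-05).

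The responses of the GRwt/wt sets of run 2 and run 1 also differed, by 0.59 for Nr4a1 (adjusted p = 0.000877), 0.34 for Jun (0.000498) and 0.31 for Fosl2 (0.0207). Run and the sex-linked transcripts of the cultures cannot be told apart there.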

How the results depend on the processing

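Every call of Nr4a1 with Dex, of Egr1 and Fos with Dex in GRwt/wt cells, and of the GRko/ko vehicle levels held under every alternative that was run other than a log2 limit of 1. With that limit, 1 member was called with Dex in GRwt/wt of run 1 and in GRL/L, 0 in GRwt/wt of run 2, GRD/D and GRD+L/D+L, 1 for the GRko/ko difference and 0 for the other differences, and 1 for the GRko/ko vehicle level and 0 for the others. With run as a term 1 was called with Dex in GRD+L/D+L (of 2), 2 for the GRD+L/D+L difference (of 4), 0 for the GRD/D vehicle level (of 1) and 2 for that of GRL/L (of 4). With only the libraries of the run 3 were called for the GRD/D difference (of 5), and with no filter on low counts 3 for the GRL/L difference (of 1). Leaving out 1 library gave 1 to 3 members with Dex in GRD/D and 1 to 2 in GRD+L/D+L, differences for 3 to 5 in GRD/D, 1 to 4 in GRD+L/D+L and 0 to 2 in GRL/L, and vehicle levels for 3 to 6 in GRD+L/D+L and 1 to 4 in GRL/L. The cause was not tested. Replicate numbers did not pair the libraries (r of -0.16 to 0.24 over 18 pairs, 3 of them over 0.1, and 6 best with their own number), and with the replicate block 5 members were called with Dex in GRwt/wt of run 1.

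Only values that were not called changed sign. With no filter on low counts these were Fosl1 0.00349 (GRwt/wt run 1, Dex) and Junb -0.00596 (GRL/L, vehicle level). With run as a term these were Fosl1 -1.51e-05 (GRko/ko, Dex), Junb 0.0792 (GRD+L/D+L, difference), Fosl1 -0.092 (GRko/ko, difference), Atf3 0.039 (GRko/ko, difference), Fosl2 0.15 (GRL/L, difference), Fosl1 0.0165 (GRD/D, vehicle level), Jun 0.036 (GRD/D, vehicle level), Jun 0.0158 (GRD+L/D+L, vehicle level) and Jun -0.00324 (GRL/L, vehicle level). With the replicate block these were Fosl1 -0.00357 (GRko/ko, Dex) and Fosl1 -0.000219 (GRko/ko, difference). With DESeq2 these were Fosl2 -0.0136 (GRD/D, vehicle level) and Junb -0.00631 (GRL/L, vehicle level). With DESeq2's size factors these were Fosl2 -0.0137 (GRD/D, vehicle level) and Junb -0.00617 (GRL/L, vehicle level). With at least 10 counts in every library this was Fosl2 -0.00704 (GRD/D, vehicle level). With only the libraries of the run these were Fosl2 -0.0119 (GRD/D, vehicle level) and Junb -0.00375 (GRL/L, vehicle level). On leaving out 1 library the sign also changed for the following uncalled log2 values. For the Dex response in GRwt/wt run 1 the range was Fosb -0.12 to 0.0525, Fosl1 -0.0495 to 0.0555, Junb -0.0228 to 0.0238 and Atf3 -0.34 to 0.14. For the Dex response in GRwt/wt run 2 the range was Fosb -0.49 to 0.0177. For the Dex response in GRD/D the range was Fos -0.0699 to 0.15, Atf3 -0.0109 to 0.27 and Egr1 -0.19 to 0.0463. For the Dex response in GRD+L/D+L the range was Fos -0.0119 to 0.11 and Junb -0.0638 to 0.0206. For the Dex response in GRko/ko the range was Fosl1 -0.0742 to 0.084, Jun -0.0264 to 0.0346, Junb -0.00622 to 0.0906 and Nr4a1 -0.00827 to 0.052. For the response difference of GRD/D the range was Atf3 -0.0294 to 0.45. For the response difference of GRD+L/D+L the range was Junb -0.0671 to 0.0201. For the response difference of GRko/ko the range was Fosl1 -0.0689 to 0.0893, Junb -0.0065 to 0.0901, Atf3 -0.21 to 0.27 and Ier2 -0.0753 to 0.0326. For the response difference of GRL/L the range was Fosb -0.23 to 0.28 and Fosl2 -0.0641 to 0.0371. For the vehicle level of GRD/D the range was Fos -0.23 to 0.14, Fosl1 -0.0818 to 0.0258, Fosl2 -0.0977 to 0.0974, Egr1 -0.21 to 0.016 and Ier2 -0.0137 to 0.11. For the vehicle level of GRD+L/D+L the range was Fosl2 -0.0216 to 0.0463. For the vehicle level of GRL/L the range was Fosb -0.0581 to 0.22 and Junb -0.0596 to 0.0975. For the response difference of GRwt/wt run 2 against run 1 the range was Fos -0.17 to 0.20, Fosb -0.44 to 0.0645, Atf3 -0.29 to 0.20 and Ier2 -0.067 to 0.098.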

Other observations

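Heat-shock genes, which handling of cells can induce together with immediate early genes, were also measured. Of 8 genes, 3 rose in GRwt/wt of run 1, 5 in run 2 and 4 in GRL/L cells, and none fell, where 7.74%, 14.9% and 8.79% of all genes rose. In GRD+L/D+L cells 2 rose and none fell (3.08% and 1.92% of all genes). In GRD/D cells 1 rose and 2 fell (5.63% and 6.24%), and edgeR called none in GRko/ko cells. Their summed level in GRwt/wt cells was 1360 to 1410 CPM with vehicle and 1700 to 1750 CPM with Dex in run 1. Hspb1, a small heat-shock protein, had a log2 change of 0.82 ± 0.064, adjusted p = 9.97e-13, in run 1 and of 1.79 ± 0.073, adjusted p = 4.98e-21, in run 2, of 0.37 ± 0.064, adjusted p = 5.39e-05, in GRD/D and of 0.37 ± 0.062, adjusted p = 6.02e-05, in GRD+L/D+L cells. Its response was smaller than in GRwt/wt of the same run in all 4 mutants, with differences of -0.45, -0.45, -0.84 and -0.43 in GRD/D, GRD+L/D+L, GRko/ko and GRL/L cells (adjusted p = 0.00124, 0.00104, 1e-08 and 0.0218). Hspa8, a constitutive Hsp70 chaperone, rose by 0.51 ± 0.045 and 0.54 ± 0.045 in the GRwt/wt sets and by 0.35 ± 0.045 in GRL/L cells. The part of these genes in the changes of the members was not tested.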
